A study of Rattus norvegicus with 14 samples.

Results

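The genes described are the transforming growth factor beta (TGF-beta) ligands Tgfb1, Tgfb2 and Tgfb3, the receptors Tgfbr1, Tgfbr3 and Acvr2b, the signal proteins Smad3 and Smad7, and the latency protein Ltbp1. They were chosen by name, as every probe set whose single gene symbol was one of 10 listed genes, which gave 15 of 31099 probe sets for 9 of the genes, out of 14217 genes that have such a probe set. Tgfbr2 was also listed, but no probe set carried it as its single symbol in the annotation used, and it was not analysed here. Whole soleus, a slow postural calf muscle, of 12 male Sprague Dawley rats was hybridised to 14 Affymetrix arrays, with 1 muscle per array. Tenotomy severs the tendon, so that the muscle no longer bears load, and here it was done on the right leg. The short-term group had 6 muscles, 2 each at 1 and 2 weeks and 1 each at 3 and 4 weeks. The long-term group had 4 muscles, 2 at 6 weeks and 1 each at 16 and 22 weeks. The 4 control muscles were left ones, with no age given in the labels. Control replicates 1 and 4 came from rats 62 and 61, whose right muscles are the 6-week ones, so their opposite leg was tenotomized. No rat gave both a control and a short-term muscle, so rat cohort and short-term tenotomy cannot be told apart.

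TGF-beta ligands are secreted bound to their own propeptide and to latent TGF-beta binding proteins such as Ltbp1, which hold them in the extracellular matrix until they are activated. The active ligand brings together a type II and a type I receptor (Tgfbr1), with Tgfbr3 as a coreceptor, and the type I receptor phosphorylates Smad2 and Smad3, which act with Smad4 in the nucleus, while Smad7 is an inhibitor induced by the pathway. In skeletal muscle the pathway is known for driving matrix production by fibroblasts and for restraining muscle precursor cells. Acvr2b is the activin type II receptor through which myostatin, a close relative of TGF-beta, limits muscle mass.

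Values are the authors' deposited array signals, scaled here so that the arrays share a median, with a floor at a signal of 9.72 below which values have no order. Changes are on the log2 scale relative to the median probe set of the same comparison, with the standard error (SE). Limma's adjusted p is over 20317 tested probe sets, and a call is an adjusted p under 0.05. The p refers to the change before that median, which was -0.14 in short-term against control muscle, is subtracted. Of the 15 probe sets, 13 passed the filter on low signals. The pair that did not pass were 1369528_at of Smad3 and 1368897_at of Smad7. The Smad3 probe set lay at the floor on 10 of 14 arrays. The Smad7 probe set lay at the floor on 4 and above the filter's signal on 1. RNA of a whole muscle was measured, so fewer cells of a type and less RNA per cell cannot be told apart.

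The arrays differed in more than these genes. Of all tested probe sets, 39.8% were called in short-term against control muscle, 14.9% being higher. The split depends on the scaling: 37.5% of the calls were higher under the scaling used, 25.4% with arrays set to a common median over all probe sets and 59.6% with a common trimmed mean. The geometric mean signal of 27 poly-A spike-in probe sets, foreign transcripts added to the sample, was 78.4 ± 7.21 in controls (SD, n = 4), 200 ± 95.2 in short-term (n = 6) and 99.0 ± 27.7 in long-term muscle (n = 4). The ratio of 3' to 5' Gapdh signals, a sign of RNA quality, was 2.08 ± 0.574, 1.33 ± 0.176 and 1.78 ± 0.670. Muscle fibre markers were high on every array, with a mean log2 signal of 12.43 to 13.33, and none of 10 was called in short-term against control muscle. The largest estimate there belonged to Myh2, a fast myosin, at 1.64 (SE 0.59, adjusted p = 0.0536), which was called in 5 of 7 scalings. Bright fibre markers such as Myh7, with a scaled geometric mean of 10237 in controls, lay near the highest deposited signal, 12542. A rise in them could therefore be missed.

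Tgfb1 and Tgfb3 were the only members called under the scaling used. Both rose in short-term muscle and were lower again in long-term muscle, while Tgfb2 was not called in any comparison under that scaling. The 2 called probe sets were 2 of the 13 members tested, both higher, beside a background of 14.9% called higher. Their share, 15.4%, is near that background, so the count does not set the members apart. Both lay above every control on all 6 short-term arrays, a pattern held by 8.53% of all tested probe sets. Under other scalings more members were called lower in short-term muscle. These were Tgfb2 1388011_a_at and Tgfbr1 1369504_at in 2 of 7 scalings each and Smad7 1368896_at in 1.

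Tgfb1, the best-known ligand in fibrosis, is shown with its promoter because it had the largest change among the members in short-term muscle. Upstream of its start in RefSeq's rat assembly GRCr8 lies chr1:90324062-90324311 on the plus strand, printed 5′ to 3′ with the 4 letters AGAC, the core of the SMAD-binding element, in capitals.
Tgfb1: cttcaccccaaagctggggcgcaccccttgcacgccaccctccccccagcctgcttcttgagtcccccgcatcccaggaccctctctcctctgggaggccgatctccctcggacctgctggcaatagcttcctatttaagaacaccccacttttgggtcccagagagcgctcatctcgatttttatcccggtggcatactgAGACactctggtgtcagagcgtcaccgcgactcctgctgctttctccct
The window of 250 bases held 60% G and C, against a median of 51.2% over 33469 such windows. AGAC, searched on both strands, occurred 1 time here and in 84.0% of all windows. No match to CAGAC (42.9% of windows), TGANTCA (6.34%), TGACGTCA (1.59%), GGGCGG (30.5%) or TATAAA (12.9%) was found, and some of these motifs overlap.

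Tgfb1 (probe set 1370082_at) was dim in control muscle, reading 26.0 and 30.9 in replicates 2 and 3 and the floor in replicates 1 and 4. In short-term muscle Tgfb1 read 51.5 and 70.5 at 1 week, 76.3 and 120 at 2 weeks, 35.6 at 3 weeks and 121 at 4 weeks. In long-term muscle it read 35.5 and 14.5 at 6 weeks, 20.3 at 16 weeks and the floor at 22 weeks. The short-term arrays thus lay above all controls and the long-term arrays overlapped the controls, although the 3-week array and the higher 6-week array were nearly equal. Short-term muscle exceeded control by 2.26 (SE 0.45, 95% interval 1.31 to 3.21, adjusted p = 0.00179), a fold of 4.80. The size depends on the floor, being 2.92 with the floor at the 10th percentile and 1.71 with none but a pseudocount of 16, since Tgfb1 was dim in controls.

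Tgfb3 (1367859_at), which is expressed in many mesenchymal tissues, was above the floor on all arrays. Control replicates 1 to 4 read 191, 192, 223 and 225. Short-term muscle read 416 and 271 at 1 week, 376 and 952 at 2 weeks, 657 at 3 weeks and 619 at 4 weeks. Long-term muscle read 230 and 228 at 6 weeks, 256 at 16 weeks and 198 at 22 weeks, a range that overlaps the controls. The short-term arrays did not overlap either other group, with the highest value in a 2-week and the lowest in a 1-week muscle. The rise over control was 1.43 (SE 0.26, 95% interval 0.87 to 1.98, adjusted p = 0.00137), a fold of 2.69. The 3-week muscle with the lowest Tgfb1 of the short-term group had the second highest Tgfb3. Tgfb1 and Tgfb3 therefore did not rank the short-term arrays alike.

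**Figure D1:**
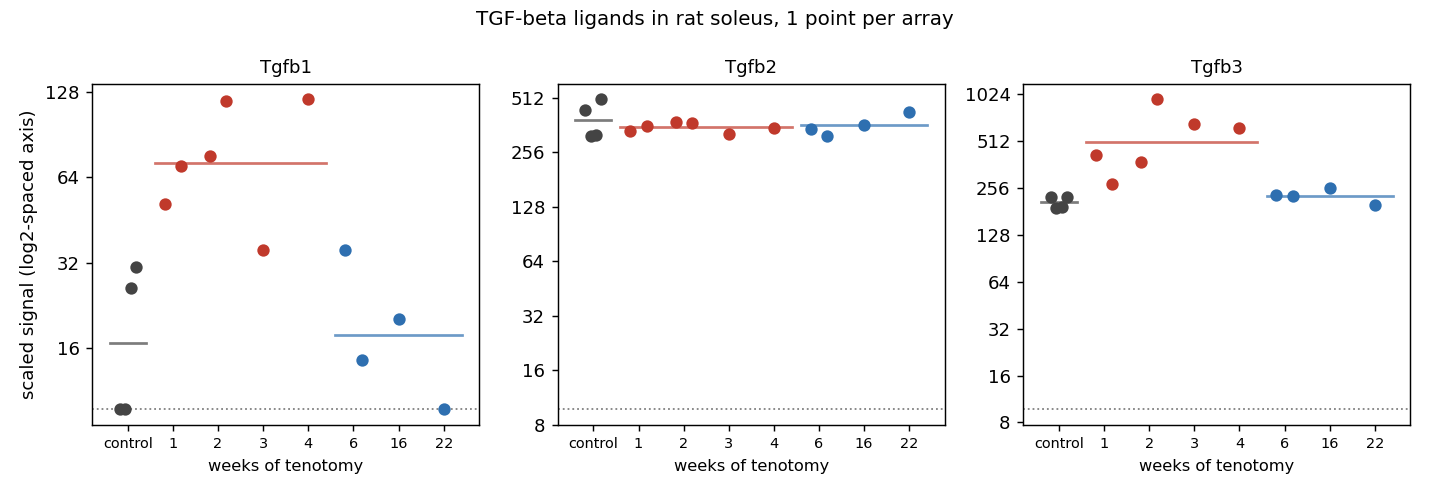
Scaled signal (log axis) of Tgfb1, Tgfb2 (brighter probe set) and Tgfb3 on each array by weeks of tenotomy, with controls in grey, short-term in red and long-term muscle in blue, group geometric means as lines and the floor dotted. The lowest short-term values, 35.6 for Tgfb1 and 271 for Tgfb3, exceed the highest controls, 30.9 and 225, and Tgfb2 overlaps between the groups.

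Tgfb2 was measured by a brighter and a dimmer probe set. The brighter, 1387172_a_at, read 313, 318, 502 and 437 in control replicates 1 to 4. In short-term muscle it read 334 and 358 at 1 week, 373 and 370 at 2 weeks, 320 at 3 weeks and 349 at 4 weeks, all within the range of the controls. Long-term values ran from 314 to 427. The change in short-term muscle was 0.01 (SE 0.15, 95% interval -0.31 to 0.32, adjusted p = 0.492). The dimmer Tgfb2 probe set, 1388011_a_at, ran from 84.7 to 131 in controls, 48.0 to 95.4 in short-term and 90.7 to 111 in long-term muscle. It was lower by a change of -0.35 (SE 0.20, adjusted p = 0.0598) in short-term muscle and was not called. It was called in 2 of 7 scalings. Leaving out control replicate 2 (change -0.45, adjusted p = 0.0440) or short-term replicate 2, a 1-week muscle (change -0.41, adjusted p = 0.0371), also gave a call. At 2 weeks this probe set was at -0.60 against control (SE 0.28, adjusted p = 0.0661), called in 3 of 7 scalings. In long-term against short-term muscle it was at 0.30 (SE 0.20, adjusted p = 0.101), called in 1 of 7 scalings.

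Because array scaling, though not the floor, cancels within an array, the log2 differences between ligands were also compared. Tgfb1 minus Tgfb2 was higher by 2.26 in short-term than in control muscle (exact 2-sided permutation test p = 0.0095, the smallest this design can give, adjusted p = 0.0357 over 15 such tests). Tgfb3 minus Tgfb2 was higher by 1.42, also with p = 0.0095 (adjusted p = 0.0357, exact permutation test). Tgfb1 minus Tgfb3 differed by 0.84 (p = 0.171, adjusted p = 0.271, exact permutation test), so the rises of the pair were not shown to differ. These pairs were chosen after their values were seen, so the tests on them are no independent support.

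In long-term against short-term muscle, 38.3% of all tested probe sets were called and 14.3% were called lower. Of the 13 members tested, Tgfb1 and Tgfb3 were called, both lower. Tgfb1 fell by 2.15 (SE 0.45, 95% interval -3.10 to -1.20, adjusted p = 0.00265) and Tgfb3 by 1.29 (SE 0.26, 95% interval -1.84 to -0.73, adjusted p = 0.00304). Both lay below every short-term array on 4 of 4 long-term arrays, as did 8.03% of all tested probe sets, although for Tgfb1 the nearest values were 35.5 and 35.6. When the 6-week muscles alone were set against the 3- and 4-week muscles, Tgfb1 differed by -1.70 (adjusted p = 0.122) and Tgfb3 by -1.64 (adjusted p = 0.0214). Within arrays, Tgfb1 minus Tgfb2 was lower by 2.06 and Tgfb3 minus Tgfb2 by 1.19 in long-term than in short-term muscle (both p = 0.0095, adjusted p = 0.0357, exact permutation test). This p is the smallest the design can give. The pairs were chosen after their values were seen, so these tests are no independent support.

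In long-term against control muscle, 0% of the tested probe sets were called by limma, 464 having an unadjusted p under 0.05. Among the members only 1369219_at of Tgfbr3 was under that unadjusted level. Tgfb1 was 0.11 above control (SE 0.49, 95% interval -0.93 to 1.15) and Tgfb3 0.14 (SE 0.29, 95% interval -0.46 to 0.75), each with an adjusted p of 1.0. The interval of Tgfb1 still holds changes near 2-fold in either direction.

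By time point, 22.5% of the tested probe sets were called at 1 week and 35.5% at 2 weeks against control. At 1 week Tgfb1 exceeded control by 1.98 (SE 0.55, adjusted p = 0.0346), and 2 weeks gave 2.64 (SE 0.55, adjusted p = 0.00586). The 1-week call was lost without either of the 1-week muscles (adjusted p = 0.122 and 0.184), without control replicate 1 (0.0741) or 4 (0.0683), and with quantile normalization, a floor at the 10th percentile or no filter. The Tgfb3 change was 0.81 at 1 week (SE 0.31, adjusted p = 0.128), not called, and 2 weeks gave 1.65 (SE 0.31, adjusted p = 0.00394). Without short-term replicate 4, the brighter 2-week muscle, the remaining muscle was taken to vary like the other groups; Tgfb1 was then no longer called at 2 weeks (2.32, adjusted p = 0.0687) and Tgfb3 was at 0.97 (adjusted p = 0.0346). Without replicate 3, the other 2-week muscle, Tgfb3 was at 2.35 (adjusted p = 1.35e-04). The 1-week change of Tgfb3 was called without short-term replicate 3 (adjusted p = 0.018) or 4 (adjusted p = 0.0185). The direct comparison of 2 weeks with 1 week called 0% of the probe sets, with 2478 under an unadjusted p of 0.05, and gave a Tgfb3 difference of 0.82 (SE 0.36, adjusted p = 0.397). At 6 weeks 0% were called against control, with 821 under an unadjusted p of 0.05. There Tgfb1 was 0.46 (SE 0.55) and Tgfb3 0.16 (SE 0.31) above control, and the Tgfbr3 probe set 1369219_at had the largest member change, 1.21 (SE 0.48, adjusted p = 1.0). Against the opposite leg of the same rat, the 6-week signal of Tgfb1 was 35.5 against the floor in rat 61 and 14.5 against the floor in rat 62. For Tgfb3 it was 230 against 225 in rat 61 and 228 against 191 in rat 62.

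Among receptors, Tgfbr1, the type I receptor that phosphorylates Smad2 and Smad3, was measured best by 1376636_at, its brighter probe set. It read 688 to 858 in controls, 650 to 995 in short-term muscle with a median of 741, and 612 to 981 in long-term muscle. All 3 ranges overlap, and the change in short-term muscle was 0.11 (SE 0.15, 95% interval -0.20 to 0.42, adjusted p = 0.880). The dimmer Tgfbr1 probe set 1369504_at read 23.9, 35.7, 23.6 and 12.3 in control replicates 1 to 4, and was at the floor at 1 week and in 1 of the 2-week muscles. Its change was -0.72 (SE 0.35, adjusted p = 0.0617). It was called in 2 of 7 scalings, with a pseudocount in place of the floor, with no intensity trend, without control replicate 4 (change -1.0, adjusted p = 0.0225) and without the 22-week muscle (change -0.71, adjusted p = 0.0485).

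Tgfbr3, the coreceptor also called betaglycan, was low on both probe sets. The leading one, 1387484_at, read 23.6 to 31.0 in controls, 17.1 to 37.8 in short-term and 21.9 to 30.5 in long-term muscle, with a short-term change of 0.09 (SE 0.24, adjusted p = 0.885). The other, 1369219_at, read the floor, 36.5, 15.9 and 11.7 in control replicates 1 to 4. It read 31.8 and 30.1 at 1 week, 30.3 and 44.8 at 2 weeks, 18.7 at 3 weeks and 11 at 4 weeks, and 38.7, 35, 23.5 and 33.7 in long-term muscle. The spread of the controls was wide. Its short-term change of 0.80 (SE 0.40, adjusted p = 0.202) became 1.21 (adjusted p = 0.0424) without control replicate 2. In long-term muscle it was 1.02 above control (SE 0.44, adjusted p = 1.0). At 6 weeks it read 38.7 against 11.7 in the opposite leg of rat 61 and 35 against the floor in rat 62, a mean paired difference of 1.81 with no test.

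Acvr2b (1388179_at) read 166, 174, 129 and 134 in control replicates 1 to 4. In short-term muscle it read 139 and 157 at 1 week, 133 and 124 at 2 weeks, 95.9 at 3 weeks and 92.3 at 4 weeks. The 3- and 4-week muscles and 1 of the 2-week muscles lay under all controls, and the long-term values of 126, 142, 198 and 188 overlapped them. The short-term change was -0.16 (SE 0.19, 95% interval -0.56 to 0.25, adjusted p = 0.226).

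The leading probe set of Smad3, 1389127_at, read 526, 372, 335 and 715 in control replicates 1 to 4. It read 570 and 745 at 1 week, 580 and 416 at 2 weeks, 408 at 3 weeks and 365 at 4 weeks, and from 373 to 545 in long-term muscle. The groups overlapped, and the short-term change was 0.24 (SE 0.23, adjusted p = 0.760). Smad7 on 1368896_at read 89.7, 77.2, 123 and 122 in the same controls. It read 53.9 and 114 at 1 week, 63.8 and 48.2 at 2 weeks, 90.5 at 3 weeks and 60.4 at 4 weeks, and 137, 121, 67.3 and 58.7 in long-term muscle. The short-term change of Smad7, the inhibitor that TGF-beta signalling induces, was -0.42 (SE 0.29, adjusted p = 0.134) and was called in 1 of 7 scalings. At 2 weeks it was -0.74 (SE 0.32, adjusted p = 0.0577). The dimmer Smad7 probe set 1368898_at had a change of -0.09 (SE 0.37, adjusted p = 0.648).

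Ltbp1 (1367912_at), which binds latent TGF-beta to the matrix, read 393, 262, 390 and 235 in control replicates 1 to 4. It read 408 and 343 at 1 week, 396 and 223 at 2 weeks, 584 at 3 weeks and 433 at 4 weeks, and 226, 305, 194 and 452 in long-term muscle. The groups overlapped. The short-term change was 0.44 (SE 0.27, 95% interval -0.13 to 1.00, adjusted p = 0.394), and the interval does not exclude a rise near 2-fold.

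**Figure D2:**
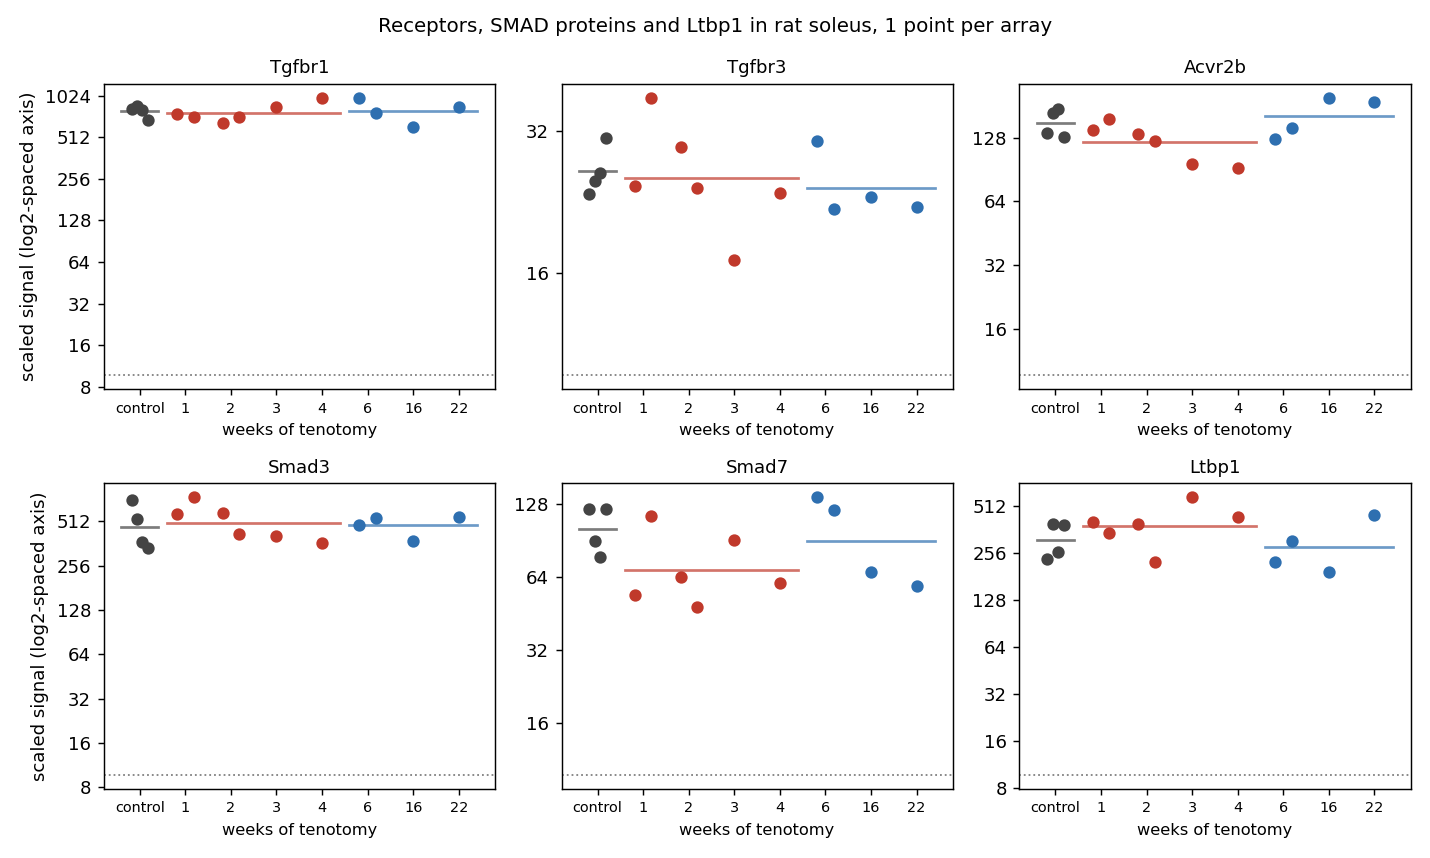
Scaled signal (log axis) of the leading probe set of Tgfbr1, Tgfbr3, Acvr2b, Smad3, Smad7 and Ltbp1 on each array by weeks of tenotomy, with controls in grey, short-term in red and long-term muscle in blue, group geometric means as lines and the floor dotted. Short-term and control arrays overlap in all 6 panels.

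**Figure D3:**
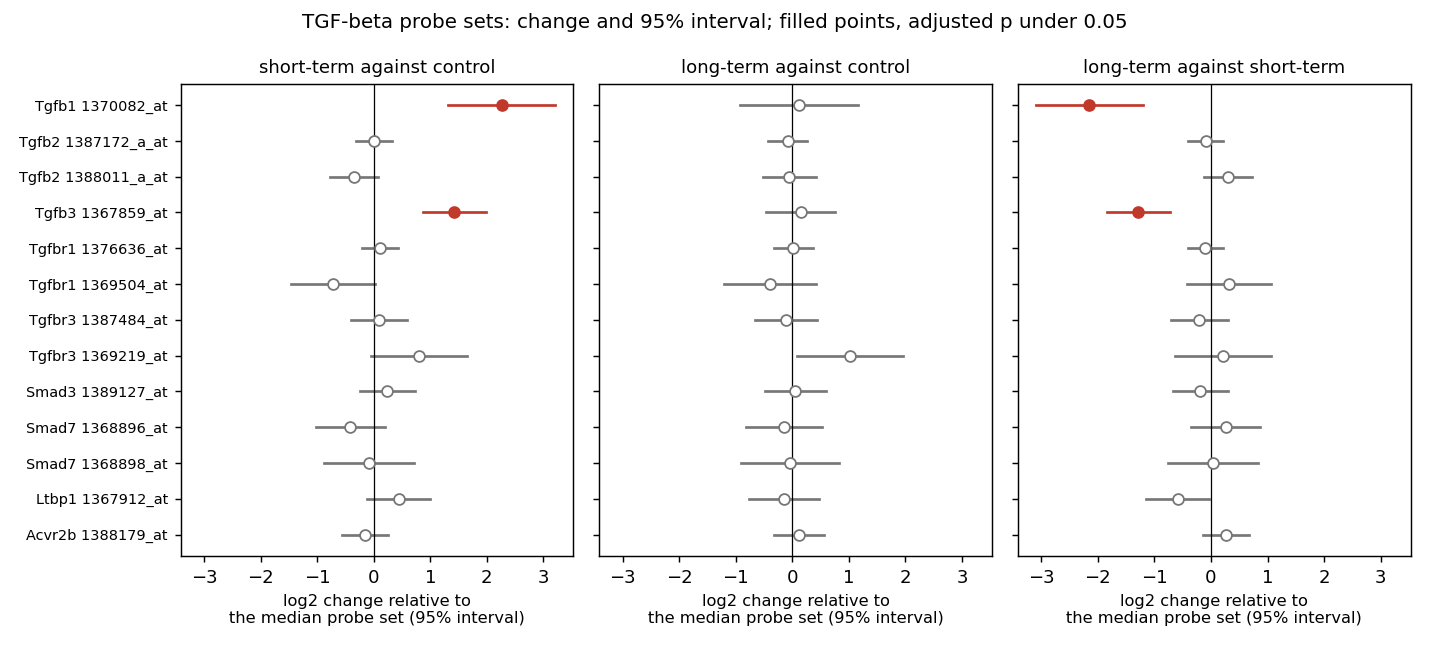
Log2 change relative to the median probe set, with 95% intervals (bars), of the 13 tested probe sets in short-term against control, long-term against control and long-term against short-term muscle. Tgfb1 and Tgfb3 are the only probe sets called, at 2.26 and 1.43 in the first comparison and -2.15 and -1.29 in the last.

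The other genes of the pathway were read from lists, one probe set per gene. Of 13 tested genes in a list on TGF-beta latency and activation, 8 rose and 1 fell in short-term muscle. Of all tested probe sets there, 39.8% were called and 14.9% were higher. The list had a median change of 1.01 beside 0 over all tested probe sets, and 7 rose and 1 fell in all 7 scalings. It mixes genes that act in different ways, so the count does not show more holding or more activation of the ligand. Emilin1, a matrix glycoprotein that limits processing of the TGF-beta precursor, read 9.72, the floor, to 34.3 in controls and 74.1 to 416 in short-term muscle (change 3.08, SE 0.47, adjusted p = 2.5e-04). Fbn2, a fibrillin, was at the floor on all control and long-term arrays and at 20.5 to 447 in short-term muscle, at least 5.56-fold higher (adjusted p = 0.00519), or at least 3.69-fold without short-term replicate 4, which held the 447. Fbn1, the main microfibril protein to which latent complexes bind, rose by 1.53 (SE 0.28, adjusted p = 0.00139). Ltbp2, a relative of Ltbp1, rose by 1.74 (SE 0.33, adjusted p = 0.00160), and Itgb6, named after its values were seen, fell by 0.80 (adjusted p = 0.00492). In long-term against short-term muscle 1 rose and 8 fell, beside 14.3% called lower over all, with a median of -1.10.

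Ltbp1 and its relatives were compared within arrays. Ltbp2 minus Ltbp1 was higher by 1.30 in short-term than in control muscle (p = 0.0381, adjusted p = 0.114, exact permutation test), and Ltbp3 minus Ltbp1 by 1.04 (p = 0.0667, adjusted p = 0.167). A difference between Ltbp1 and these relatives was therefore not shown after adjustment.

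Of 10 tested extracellular antagonists, which bind ligands outside the cell, 4 rose and none fell in short-term muscle, beside 14.9% called higher over all tested probe sets, with a median of 0.77. Bgn, a small proteoglycan that binds TGF-beta, read 228 to 270 in controls and 942 to 3449 in short-term muscle (change 2.90, SE 0.36, adjusted p = 6.2e-05). Fstl1, a follistatin-like glycoprotein, rose by 2.12 (SE 0.26, adjusted p = 7.1e-05) and Fst, which neutralises activins and myostatin, by 1.62 (SE 0.29, adjusted p = 9.8e-04). Chrd, a BMP antagonist, rose by 0.89 (SE 0.21, adjusted p = 0.0104) and was called in 6 of 7 scalings.

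Of 20 tested target genes, 11 rose and 1 fell in short-term muscle, beside 14.9% called higher over all, with a median change of 1.35. In long-term against short-term muscle 12 fell, beside 14.3% called lower over all, with a median of -1.26. Postn, a matrix protein, rose by 3.79 (SE 0.62, adjusted p = 4.05e-04), or 4.41 without control replicate 4, and Lox, which crosslinks collagen, by 3.23 (SE 0.38, adjusted p = 4.4e-05). Col1a1, the main chain of type I collagen, rose by 3.05 (SE 0.51, adjusted p = 4.99e-04) and Timp1, an inhibitor of matrix proteases, by 2.88 (SE 0.43, adjusted p = 2.27e-04). Id1, a target of BMP signalling, was the gene that fell, by 0.51 (adjusted p = 0.0378), in 3 of 7 scalings. Other genes of the list did not pass: Ccn2 was at 0.53 (adjusted p = 0.157) and Acta2 at 0.10 (adjusted p = 0.908). Col1a1 and Col1a2 also stand in the fibroblast marker list and Acta2 and Tagln in the smooth muscle list. Dcn stands in both the antagonist list and the fibroblast marker list.

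In the remaining lists 2 of 18, 3 of 10 and 1 of 8 tested genes were called in short-term muscle, beside 39.8% of all tested probe sets. Of 18 tested other signal proteins, Pmepa1, a feedback inhibitor, rose by 1.16 (SE 0.31, adjusted p = 0.0167) and Usp15, a deubiquitinase of the pathway, fell by 0.62 (adjusted p = 0.00290), with a list median of -0.06. Smad2 was at 0.00 (SE 0.16, adjusted p = 0.501) and Smad4 by -0.04 (SE 0.11, adjusted p = 0.202). Of 10 tested other ligands, Gdf10 rose by 1.69 (SE 0.41, adjusted p = 0.00793), while Gdf15 fell by 1.46 (adjusted p = 0.0215, 4 of 7 scalings) and Bmp6 by 0.43 (adjusted p = 0.0101, 5 of 7 scalings). Gdf15 ran from 11.5 to 147 in controls, with a median of 30.8. In short-term muscle it ran from the floor to 19.0, with 3 of 6 arrays at the floor, so the size of its fall is uncertain. Inhba was at 0.64 (SE 0.49, adjusted p = 0.440), and Mstn, which encodes myostatin, was not tested, lying at the floor on 3 of 4 control, 5 of 6 short-term and 3 of 4 long-term arrays. Of 8 tested other receptors, Hjv, a BMP coreceptor of muscle, fell by 0.63 (adjusted p = 0.00191) and none rose, the list's median being 0.29.

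**Figure D4:**
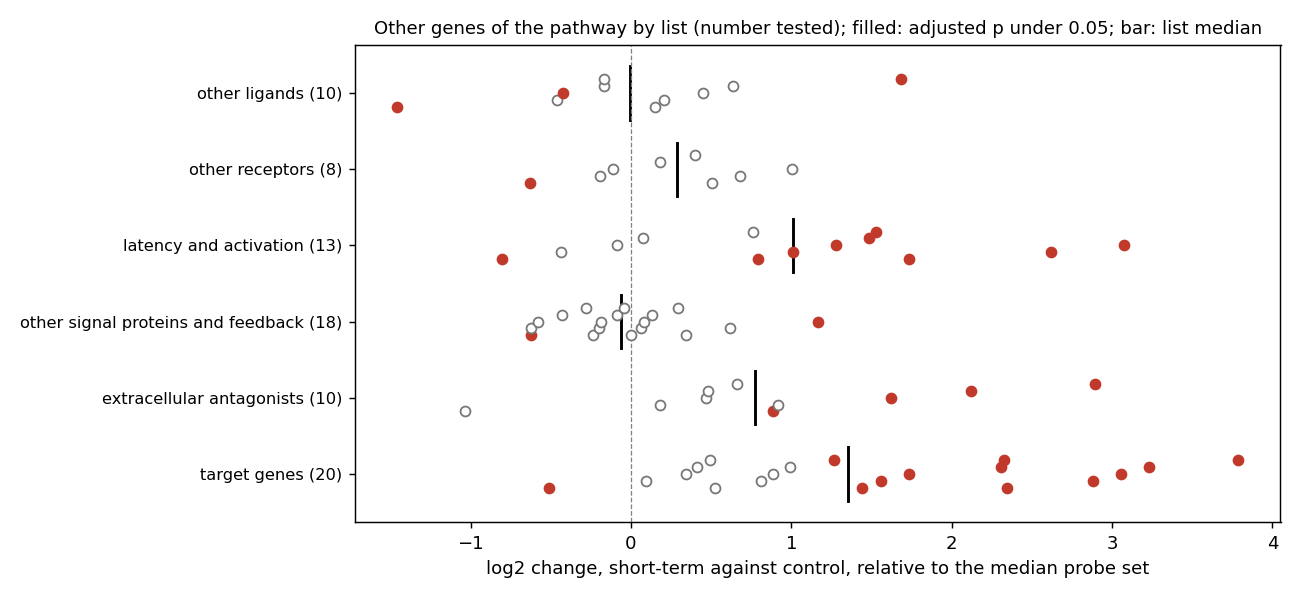
Log2 change in short-term against control muscle, relative to the median probe set, of each tested gene in the pathway lists (points, filled where called; vertical bars, list medians). The latency, antagonist and target lists have medians of 1.01, 0.77 and 1.35, and the other ligands and signal proteins -0.01 and -0.06.

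Most macrophage and fibroblast markers moved with the same groups, and most endothelial, smooth muscle and pericyte markers were not called. The marker counts stand beside 39.8% called and 14.9% called higher over all tested probe sets. Of 14 macrophage markers, 12 rose and none fell in short-term muscle (median change 1.84), their mean log2 signal being 6.32 to 7.42 in controls, 7.99 to 9.16 in short-term and 5.63 to 7.55 in long-term muscle. Of 11 fibroblast markers, 9 rose and none fell (median 1.58), with mean log2 signals of 8.96 to 9.62, 10.48 to 11.20 and 7.84 to 9.74. Of 9 smooth muscle and pericyte markers 2 rose and of 6 tested platelet and lymphocyte markers 2 rose, while of 9 endothelial markers none rose and 1 fell. No macrophage or fibroblast marker was at the floor on all arrays of a group. The part of these cells, of the spike-in level and of the Gapdh ratio in the rise of Tgfb1, Tgfb3 and the pathway genes was not tested.

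By root mean square difference of the log2 change from the control mean over the 10 tenotomized arrays, the probe sets most like Tgfb1 were Sema3f at 0.28, Anp32a at 0.37 and Rnf125 at 0.44, against a median of 1.93 over the 15097 ranked. Those most like Tgfb3 were Cd276 at 0.19, Fads1 at 0.19 and Sytl2 at 0.20, against a median of 1.29.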

How the data were processed

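Gene expression was measured on 14 Affymetrix arrays of rat soleus muscle, 4 control, 6 short-term and 4 long-term tenotomized. The deposited values are linear signal intensities that the authors computed with MAS5, per the submitters' processing notes; the scaling target, software version and detection calls are not given in the sources used here. Array medians ran from 29.8 to 49.3, and the number of arrays limits the precision. Here, log2 signals were shifted so that the tested probe sets had 1 median on all arrays, raised to a floor at the pooled 25th percentile (9.72), and tested if above the pooled 40th percentile (22.1) on at least 4 arrays, leaving out 57 manufacturer controls. That left 20317 probe sets. Groups, and in a second fit time points, were tested in limma (3.58.1, under R 4.3.3) on all 14 arrays together, with an intensity trend and Benjamini-Hochberg adjustment. The median probe set still moved, by -0.14 in short-term against control, -0.01 in long-term against control and 0.13 in long-term against short-term muscle. Printed changes are relative to it, and p-values refer to the change before this subtraction. Separate muscles are replicates, 1 array each. Gene symbols come from the GEO platform annotation, and 20826 probe sets carry exactly 1. The promoter comes from RefSeq (GRCr8), and no other positions are given since no build is named.

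Every member probe set is named. Of the other pathway genes, up to 4 per list with the largest called changes are named, with Mstn, Inhba, Smad2, Smad4 and Fst whatever their values; 1 gene of this rule is not reported here. Id1, Ccn2, Acta2, Itgb6, Ltbp3 and Myh2 were picked with their values in view; other called genes of the lists are only counted. The members and lists were chosen with earlier results of these data known. The rat numbers in the labels pair a control and a 6-week muscle of rats 61 and 62, and the consensus correlation of muscles of 1 rat was 0.32. Alternatives tried were 6 other scalings, other floors and filters, 1 probe set per gene, other variance models, rat as a block and leaving out each array. The scripts were tested on simulated data.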

Additional observations from a re-analysis of the deposited data

Results flagged for a closer look

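Tgfb1 and Tgfb3 differed between long-term and short-term muscle in limma's test of the difference, by -2.15 for Tgfb1 and -1.29 for Tgfb3, with 4 of 4 long-term arrays below every short-term array for both. For Tgfb1 the separation was slight, with 35.5 in a 6-week against 35.6 in the 3-week muscle. The untested Smad3 probe set 1369528_at had 1 value apart from the others of its group in the controls, 10.3 for replicate 2 beside the floor of 9.72, and in long-term muscle, 16.7 for replicate 1 beside the same floor. Both lie close to the floor, and 2 of 45 groups checked stood out in this way. The other values of both groups were tied at the floor, so any single value above it would stand out. A chance rate of about 1 in 20 therefore does not apply to them.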

How the results depend on the processing

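Tgfb1 and Tgfb3 kept their call and direction in short-term against control muscle under every alternative in which they were tested, all 7 scalings included; the stricter filter at the 60th percentile left Tgfb1 untested. Leaving out 1 array gave 2.00 to 2.56 for Tgfb1 and 1.25 to 1.62 for Tgfb3. In long-term against short-term, Tgfb1 was not called when 6 weeks stood against 3 and 4 weeks (-1.70). In long-term against control, Tgfb1 in the pairs of legs averaged 1.24 above the opposite leg, and 3 other members moved by more than the spread of the controls between the group value and these pairs: Smad7 1368896_at from -0.15 to 0.32, Tgfbr3 1387484_at from -0.11 to 0.11 and Acvr2b from 0.12 to -0.13. Tgfbr3 1369219_at went from 1.02 to 1.81. The pairs hold 6-week muscles only, while the group value also holds later time points, so time and pairing change together. Without pairing, the 6-week muscles against all controls gave 0.37 for Smad7 1368896_at and -0.14 for Acvr2b, near the pairs. They gave 0.46 for Tgfb1, -0.01 for Tgfbr3 1387484_at and 1.21 for Tgfbr3 1369219_at, further from the pairs. With rat as a replicate block, 8430 probe sets were called in short-term against control and 7778 in long-term against short-term, and the block changed no count by over 1.5 times. Of 1064 values of members under alternatives, 1044 kept their side of the threshold or stayed within the spread of the controls, no called value reversed and 50 uncalled values changed sign.

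Counts of all probe sets called were 8081 in short-term against control (6444 to 8393 leaving out 1 array, 5132 with 1 probe set per gene), 7791 in long-term against short-term (5780 to 8107, 5045 with 1 probe set per gene, 3361 for 6 weeks against 3 and 4 weeks), 4563 in 1 week against control (1390 to 5676, 2954 with 1 probe set per gene) and 7208 in 2 weeks against control (3128 to 7637, 4433 with 1 probe set per gene). Fewer probe sets were tested with 1 per gene. The 1390 was without short-term replicate 1 and the 3128 without short-term replicate 4. From 0, long-term against control gave 3 with no filter, and 6 weeks against control gave 4 with no filter and 0 to 27 leaving out 1 array. For 2 weeks against 1 week the count of 0 became 1 on the deposited scale, 3 with the trimmed mean, 5 with quantile normalization, 3 with median ratio scaling (chosen after seeing the data), 90 with no filter, 1 with no intensity trend, 3 with robust eBayes and 0 to 1735 leaving out 1 array, the 1735 without short-term replicate 3.

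Member probe sets called were 2 in short-term against control (5 with a common median over all probe sets, 4 with quantile normalization, 1 with the 60th percentile filter, 2 to 4 leaving out 1 array) and 2 in long-term against short-term (4, 1 with that filter and 1 for 6 weeks against 3 and 4 weeks). They were 1 in 1 week against control (0 with quantile normalization, the lower floor, no filter or the 60th percentile filter, 0 to 2 leaving out 1 array), 2 in 2 weeks against control (5 on the deposited scale, 4 with a common median, 4 with quantile normalization, 1 with the filter, 1 to 4 leaving out 1 array) and 0 in 2 weeks against 1 week (0 to 1). The causes were not tested. The dim probe sets near the floor, among them Tgfb1 in controls, limit what can be read from their sizes.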
